A study of Mus musculus with 24 samples.

Results

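The late phase of the interleukin 4 (IL4) response was examined in mouse bone marrow-derived macrophages (BMDM) labelled Tet2 knockout, by comparing cells exposed to IL4 for 24 h with cells exposed for 10 h. The libraries were taken by their labels, which name genotype, cell type and treatment time, and they make up 4 of the 24 samples of the series and 4 of its 12 BMDM RNA libraries. They are 2 libraries at 24 h and 2 at 10 h, from C57BL/6 mice, with IL4 at 20 ng/ml at both times. The other groups used were 2 untreated libraries of the same genotype label, and wild-type C57BL/6 libraries after 24 h and 10 h of IL4 or untreated (2 each).

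Marrow cells of both genotypes had been grown in medium with macrophage colony-stimulating factor and L929-conditioned medium, and were moved to a plainer medium without these additions on the evening before IL4 was added. The design text calls the libraries biological replicates and does not say which animals they came from, so p-values measure the spread between these libraries. The labels do not name the Tet2 allele of the BMDM or the cells in which it was deleted. All libraries compared here carried IL4, and none came from cells kept untreated for 10 h or 24 h, so hours of IL4 and hours in the plainer medium cannot be told apart. RNA came from whole cultures, in which fewer cells of a type and less RNA per cell cannot be told apart.

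IL4 is a type 2 cytokine. It signals through the IL4 receptor and the transcription factor STAT6, and drives macrophages to alternative activation, the programme associated with helminth infection, tissue repair and allergy. Its known products include arginase, chitinase-like proteins, resistin-like proteins, lectins and chemokines that attract eosinophils and T cells, and IL4 can also make macrophages divide and fuse into giant cells. TET2 is a dioxygenase that converts 5-methylcytosine in DNA to 5-hydroxymethylcytosine.

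Gene levels were deposited as FPKM, a measure that divides the fragments of a transcript by its length and by the total of the library. Total FPKM was 435062 and 491604 in the 24 h libraries and 480439 and 480192 in the 10 h libraries, and their relative depth was 1.35 and 1.13 at 24 h and 1.00 and 1.11 at 10 h, where 1 is the first 10 h library. The label of the cells was checked on 9 macrophage markers. Their summed level was 7386 and 7456 FPKM at 24 h and 8740 and 8080 FPKM at 10 h, and most of it was Lyz2, at 6054 and 6136 FPKM at 24 h and 7141 and 6512 FPKM at 10 h. Itgam (0.66, adjusted p = 0.00106 by limma) and Cd14 (0.54, adjusted p = 0.00961) were higher at 24 h, and the other 7 did not pass the test. Csf1r, among those, had 437 and 423 FPKM at 24 h and 539 and 516 FPKM at 10 h. All 8 T and NK cell markers, all 5 erythroid markers and all 8 eosinophil, basophil and mast cell markers were under 1 FPKM in all 4 libraries. The megakaryocyte marker Pf4 had 92.0 and 103 FPKM at 24 h and 139 and 134 FPKM at 10 h. The endothelial marker Pecam1 had 3.53 and 4.65 FPKM at 24 h and 4.02 and 4.46 FPKM at 10 h. The B cell marker Cd79b had 2.06 and 2.42 FPKM at 24 h and 2.16 and 2.91 FPKM at 10 h. All other markers of these cell types were under 1 FPKM in all 4 libraries. The 9 fibroblast markers summed to 9.71 and 9.85 FPKM at 24 h and 20.7 and 21.6 FPKM at 10 h, and the 9 neutrophil markers found in the table summed to 56.6 and 93.1 FPKM at 24 h and 84.3 and 76.1 FPKM at 10 h.

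The level of the targeted gene did not check the genotype labels. In cells labelled knockout, Tet2 stood at 4.02 and 4.48 FPKM untreated, 7.22 and 8.19 FPKM after 10 h and 11.3 and 10.3 FPKM after 24 h, and wild-type cells held 4.11 and 5.91 FPKM untreated, 8.74 and 8.81 FPKM after 10 h and 9.38 and 9.82 FPKM after 24 h. The untreated values overlapped, while the labelled knockout lay below wild type at 10 h (-0.17 ± 0.13, adjusted p = 0.837) and above it at 24 h (0.16 ± 0.13, adjusted p = 0.506), neither passing limma's test. A level over the whole gene does not check a deletion of part of it. In the labelled knockout Tet2 was higher at 24 h than at 10 h by 0.44 ± 0.13 (log2 difference ± SE, adjusted p = 0.0356 by limma), a call that was lost when any of the 4 libraries was left out, without the low-value filter, and under both other scalings. Tet3 had 3.23 and 2.78 FPKM at 24 h and 2.89 and 3.25 FPKM at 10 h, which overlapped, and Tet1 was too low to be tested.

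Of 23309 gene models, 10510 reached 1 FPKM in at least 2 of the 12 libraries and were tested, and 2422 passed the threshold between 24 h and 10 h (23.0% of those tested, adjusted p under 0.05 by limma). Of these, 1273 were higher at 24 h (12.1%) and 1149 were lower (10.9%). Differences are given throughout as 24 h minus 10 h on the scale of log2(FPKM + 1), which understates changes of genes with low values. The median difference over all tested genes was -0.02. A 2-fold difference on that scale was reached by 234 of the higher and 105 of the lower genes, and a 4-fold difference by 30 of the higher genes but only 4 of the lower, of which 3 were small RNA genes and the fourth was Eif3j2. The values of the 2 times did not overlap for any of the 2422 genes, and the same held for 69.9% of all tested genes.

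The number of calls depended on every single library. It was 1236 without the first 10 h library and 1561 without the second, 1491 without the first 24 h library and 1354 without the second. Among the genes with the highest and lowest differences, most kept their side of the threshold, and those that did not are named beside their values.

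Most tested effectors of alternative activation were higher at 24 h. Of 30 tested members of a list of 34, 17 were higher and 4 were lower, with a median difference of 0.56 against -0.02 over all tested genes. With 1 FPKM required in all 12 libraries, 9 of 19 were higher and 4 lower. The 4 other members, Alox15, Ch25h, Cd209a and Cd209e, were too low to be tested. Chi3l3, which encodes the chitinase-like lectin Ym1, had 284 and 299 FPKM at 24 h and 21.0 and 23.3 FPKM at 10 h, a log2 difference of 3.66 ± 0.14 (adjusted p = 7.88e-07). The 24 h libraries lay far above the 10 h libraries. Its close relative Chi3l4 was at 8.29 and 9.65 FPKM at 24 h and 0.988 and 0.968 FPKM at 10 h, and reads shared between these near-identical copies make the split between them uncertain. Arg1, arginase 1, which turns arginine into ornithine and urea, reached 373 and 417 FPKM at 24 h, against 71.7 and 79.6 FPKM at 10 h (2.37 ± 0.12, adjusted p = 2.02e-06).

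Retnla, which encodes the secreted resistin-like molecule alpha, was one of the most abundant effectors, with 4910 and 7317 FPKM at 24 h and 1352 and 1412 FPKM at 10 h (2.12 ± 0.18, adjusted p = 3.68e-05). The gene is a classical IL4 target, and it was named after its values were seen. The window of 300 bases around its start is shown because it holds the spaced palindrome TTCNNNNGAA (N is any base), the form of site that STAT6 is known to bind. The sequence is from RefSeq, build GRCm38.p6, chr16:48842359-48842658, plus strand, from 250 bases before to 50 bases after the gene start, with the match in capitals (first base 145 bases before the start).
Retnla: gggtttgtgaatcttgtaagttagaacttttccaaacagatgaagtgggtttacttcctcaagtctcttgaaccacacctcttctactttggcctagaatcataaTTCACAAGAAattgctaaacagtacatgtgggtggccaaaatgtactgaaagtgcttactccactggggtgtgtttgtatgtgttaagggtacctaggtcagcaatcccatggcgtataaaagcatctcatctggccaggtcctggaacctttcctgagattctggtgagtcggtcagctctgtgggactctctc
The palindrome, which reads the same on both strands, occurred in 8 of 32 windows of the list (25%), where a gene can have several starts, and in 6.95% of all 32851 windows of the same length. This describes letters only and not binding.

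Ear2 and Ear11 encode eosinophil-associated ribonucleases and had the highest differences of all named genes. Ear2 was at 54.4 and 75.8 FPKM at 24 h and 1.50 and 0.931 FPKM at 10 h (4.89 ± 0.20, adjusted p = 7.88e-07). Ear11 was at 295 and 421 FPKM at 24 h and 15.1 and 20.9 FPKM at 10 h (4.23 ± 0.18, adjusted p = 7.88e-07). The Ear genes are near-identical copies of each other, so the assignment of reads to one member is uncertain, while the eosinophil, basophil and mast cell markers Epx and Prg2 stayed under 1 FPKM in all 4 libraries. Mgl2, a galactose-binding lectin receptor, had 295 and 342 FPKM at 24 h and 49.0 and 54.9 FPKM at 10 h (2.59 ± 0.17, adjusted p = 8.72e-06). Fn1, fibronectin, was at 25.4 and 26.1 FPKM at 24 h and 5.33 and 5.24 FPKM at 10 h (2.09 ± 0.13, adjusted p = 7.37e-06), and the scavenger receptor gene Cd36 was at 481 and 533 FPKM at 24 h and 154 and 202 FPKM at 10 h (1.52 ± 0.15, adjusted p = 7.16e-05).

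Not every alternative activation gene was higher at the later time. F13a1, which encodes the coagulation factor XIII A chain, fell to 39.8 and 41.4 FPKM at 24 h, against 83.6 and 81.3 FPKM at 10 h (it fell by 1.00 ± 0.12 on the log2 scale, adjusted p = 0.000221). Mrc1, the mannose receptor CD206, had 549 and 527 FPKM at 24 h and 724 and 710 FPKM at 10 h (-0.41 ± 0.13, adjusted p = 0.0431), a call lost when any of the 4 libraries was left out. The 2 others that fell were the transferrin receptor gene Tfrc and Ptgs1, which encodes cyclooxygenase 1.

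**Figure D1:**
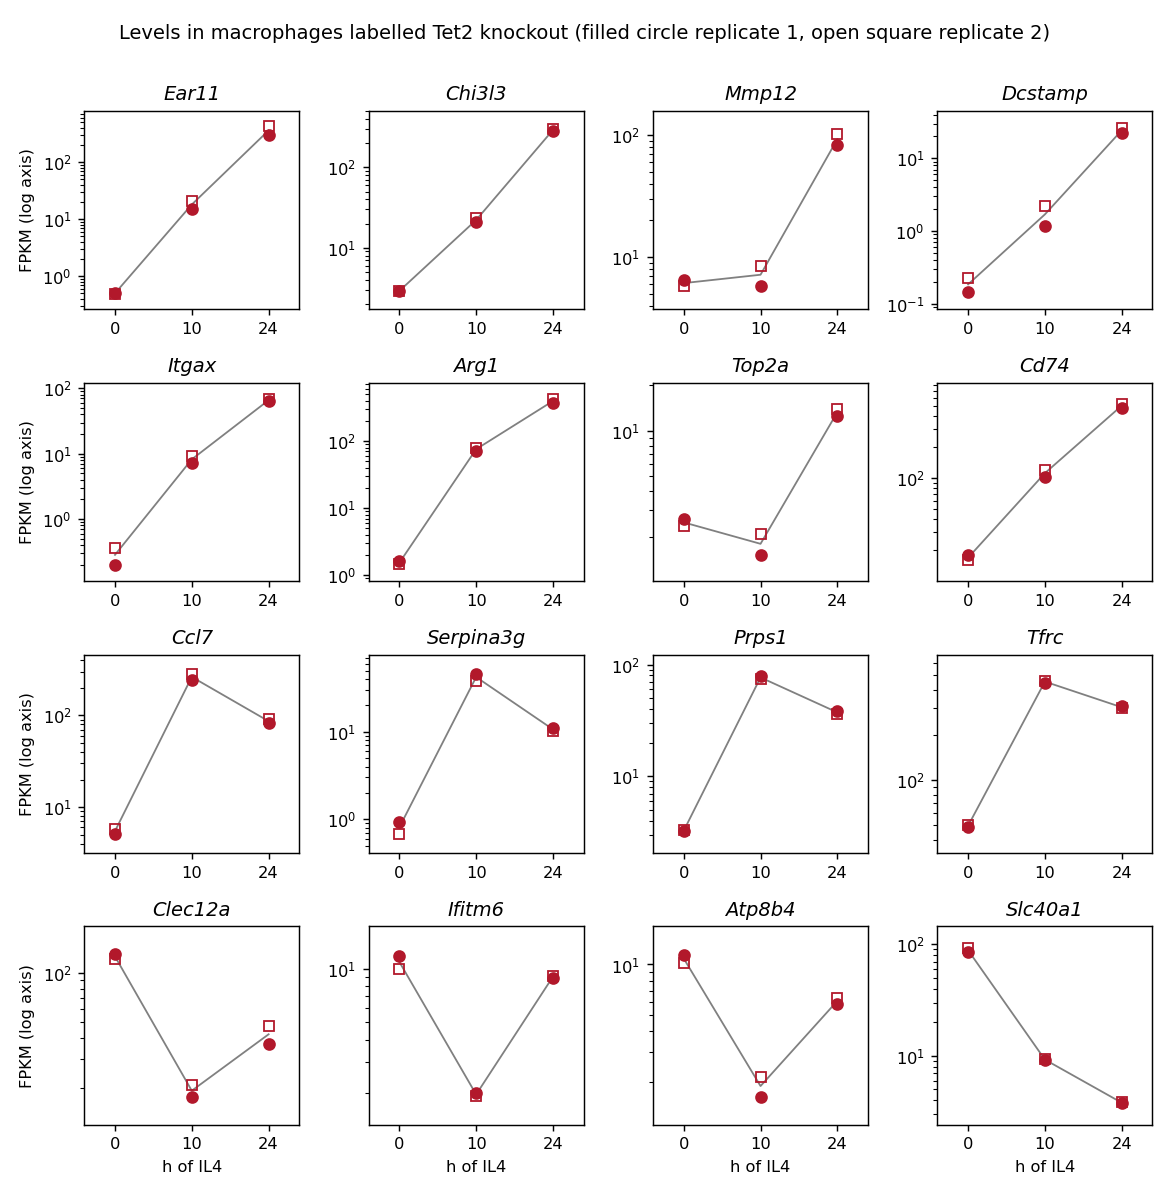
Levels in FPKM (log axis) of 16 genes in the 6 libraries labelled Tet2 knockout, against hours of IL4 (0, 10 and 24); circles and squares are the replicates and the grey line joins the means. The upper 8 genes lie higher at 24 h than at 10 h, Ccl7, Serpina3g, Prps1 and Tfrc peak at 10 h, Clec12a, Ifitm6 and Atp8b4 are lowest at 10 h, and Slc40a1 is lower at each later time.

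Dcstamp and Ocstamp, genes of macrophage fusion, were among the highest differences. They encode membrane proteins needed for the fusion of macrophages and osteoclasts, and were under 1 FPKM in both untreated libraries. Dcstamp had 22.5 and 25.9 FPKM at 24 h and 1.17 and 2.22 FPKM at 10 h (3.25 ± 0.17, adjusted p = 2.09e-06). Ocstamp had 15.9 and 16.2 FPKM at 24 h and 1.16 and 1.13 FPKM at 10 h (2.99 ± 0.21, adjusted p = 1.41e-05). Of 16 tested members of the fusion and osteoclast-like list, 6 were higher and 1, Sirpa, was lower, with a median difference of 0.20, and with 1 FPKM required in all 12 libraries 3 of 10 were higher. Against untreated cells, 9 of the 16 were higher at 10 h (24.2% of all tested genes), in a comparison that shares the 10 h libraries. The higher members included Atp6v0d2, a proton pump subunit, at 179 and 199 FPKM at 24 h and 79.1 and 93.8 FPKM at 10 h, and the tetraspanin gene Cd9, at 529 and 512 FPKM at 24 h and 299 and 331 FPKM at 10 h.

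Among genes of matrix turnover, Mmp12, the macrophage metalloelastase, overlapped between untreated and 10 h libraries. It had 6.51 and 5.78 FPKM untreated, 5.87 and 8.52 FPKM after 10 h and 82.9 and 102 FPKM after 24 h, a difference of 3.53 ± 0.16 between the IL4 times (adjusted p = 1.2e-06). Tgfbi, an adhesion protein induced by TGF-beta, had 30.7 and 32.0 FPKM at 24 h and 10.1 and 9.33 FPKM at 10 h (1.59 ± 0.12, adjusted p = 1.56e-05). Of 17 tested members of the matrix list, 5 were higher and 7 were lower, with a median difference of -0.34. With 1 FPKM required in all 12 libraries the balance turned, with 4 of 11 higher and 2 lower, and 3 of the 17 were higher without the second library of either time. The lower ones included Timp3, a protease inhibitor, at 1.09 and 1.17 FPKM at 24 h and 3.41 and 3.37 FPKM at 10 h. Mmp2, Mmp14, Serpinb2, Spp1 and Thbs1 were also lower, and the call of Thbs1 was lost without the second library of either time.

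Markers of another cell type were lower at 24 h as well. All 3 tested fibroblast markers were lower at 24 h, with a median difference of -0.92. Col1a2 was at 4.03 and 4.21 FPKM at 24 h and 9.42 and 9.44 FPKM at 10 h, Dcn at 1.55 and 1.43 FPKM at 24 h and 3.49 and 3.94 FPKM at 10 h, and Postn at 2.72 and 2.80 FPKM at 24 h and 4.54 and 4.81 FPKM at 10 h. Lox, which cross-links collagen, was at 2.41 and 2.36 FPKM at 24 h and 5.86 and 6.91 FPKM at 10 h, and the collagen chaperone gene Serpinh1 at 3.04 and 2.30 FPKM at 24 h and 6.85 and 6.73 FPKM at 10 h. The part of these markers in the differences of matrix genes was not tested.

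Most genes of MHC class II presentation were higher at 24 h. Of 13 tested members of the list, 10 were higher at 24 h and none was lower, with a median difference of 0.99, and the other 3 were the subunits Rfx5, Rfxap and Rfxank of the RFX factor. Ciita, the master activator of class II genes, had 6.25 and 5.81 FPKM at 24 h and 0.765 and 0.683 FPKM at 10 h (2.03 ± 0.13, adjusted p = 9.17e-06). H2-Aa, a class II alpha chain, had 53.4 and 65.5 FPKM at 24 h and 9.91 and 9.26 FPKM at 10 h (2.51 ± 0.19, adjusted p = 2.05e-05). Cd74, the invariant chain, had 478 and 526 FPKM at 24 h and 103 and 120 FPKM at 10 h (2.16 ± 0.17, adjusted p = 2.33e-05). The integrin gene Itgax, which encodes CD11c, rose to 63.6 and 68.1 FPKM at 24 h, against 7.13 and 9.26 FPKM at 10 h (2.87 ± 0.14, adjusted p = 1.44e-06). The 6 dendritic cell markers were under 1 FPKM in all 4 libraries. Zbtb46, the only one of them tested, had 0.975 and 0.720 FPKM at 24 h and 0.605 and 0.735 FPKM at 10 h (adjusted p = 0.411 by limma). It was higher at 24 h than untreated (0.60, adjusted p = 0.00177), where it had 0.185 and 0.243 FPKM. In wild type it was higher at 24 h than at 10 h (0.38, adjusted p = 0.0354). Of 17 tested genes of MHC class I presentation, 2 were higher and 2 were lower, near the 12.1% and 10.9% of all tested genes. Their median difference was 0.01, and fewer were higher when any of the 4 libraries was left out.

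Most genes of cell division were higher at 24 h. In the G2 and mitosis list, 45 of 48 tested members were higher and none was lower, with a median difference of 1.04. In the DNA replication list, 39 of 52 were higher and none was lower, with a median of 0.65. In the list of replication-dependent histones, 45 of 64 were higher and none was lower, with a median of 1.08. Members that did not reach the filter, 7, 4 and 3 in these lists, were not tested, and 27 of the 48 tested mitosis genes were under 1 FPKM in both 10 h libraries, so that they had passed the filter through other libraries. Where 1 FPKM was required in all 12 libraries, which does not favour genes that are high at one time, 14 of 17 mitosis, 26 of 37 replication and 45 of 60 histone genes were higher and none was lower. Leaving out 1 library gave 44 to 45 higher mitosis genes, 28 to 30 higher replication genes and 40 to 42 higher histone genes.

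Top2a, which encodes DNA topoisomerase II alpha, had 12.6 and 14.0 FPKM at 24 h and 1.51 and 2.07 FPKM at 10 h (2.36 ± 0.13, adjusted p = 2.24e-06). Its untreated level of 2.63 and 2.34 FPKM was above both 10 h values. Cdk1, the kinase that drives entry into mitosis, had 6.24 and 5.63 FPKM at 24 h and 2.15 and 2.24 FPKM at 10 h, and the proliferation marker Mki67 had 3.12 and 3.52 FPKM at 24 h and 0.803 and 0.954 FPKM at 10 h. Uhrf1, a replication-coupled factor that keeps DNA methylation in place, had 8.08 and 7.51 FPKM at 24 h and 1.40 and 1.50 FPKM at 10 h (1.84 ± 0.09, adjusted p = 1.44e-06). Pola1, the catalytic subunit of DNA polymerase alpha, had 5.45 and 5.65 FPKM at 24 h and 1.71 and 1.91 FPKM at 10 h (1.22 ± 0.09, adjusted p = 1.8e-05). Hist1h1a, a linker histone gene, had 99.7 and 101 FPKM at 24 h and 17.2 and 24.0 FPKM at 10 h (2.25 ± 0.17, adjusted p = 2.07e-05). No library of one time reached the values of the other for any of these genes. Histone genes are near-identical copies, and levels of single members are uncertain. Their mature transcripts mostly lack poly(A) tails, and the libraries were made by removal of ribosomal RNA, per the labels.

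Start windows of 3 of these genes are shown because short promoter elements are known for each of the lists they come from. TTTGAA is the cell cycle genes homology region known from genes of G2 and mitosis, TTTCCCGC and TTTGGCGC are forms of the E2F site of replication genes, and CCAAT is the box bound by NF-Y. Windows were searched on both strands, and none of these letters contains another. All are RefSeq windows of GRCm38.p6, 250 bases before to 50 bases after the gene start. Capitals mark only the element of the list each gene comes from, so CCAAT boxes in the Top2a and Pola1 windows are in small letters. Top2a lies at chr11:99024140-99024439 on the minus strand, with TTTGAA beginning 179 bases before the start and its reverse complement 23 bases before. Pola1 lies at chrX:93632106-93632405 on the minus strand, with the reverse complement of TTTGGCGC 138 bases before the start. Hist1h1a (H1f1 in RefSeq) lies at chr13:23763418-23763717 on the plus strand, with CCAAT 56 bases before the start.
Top2a: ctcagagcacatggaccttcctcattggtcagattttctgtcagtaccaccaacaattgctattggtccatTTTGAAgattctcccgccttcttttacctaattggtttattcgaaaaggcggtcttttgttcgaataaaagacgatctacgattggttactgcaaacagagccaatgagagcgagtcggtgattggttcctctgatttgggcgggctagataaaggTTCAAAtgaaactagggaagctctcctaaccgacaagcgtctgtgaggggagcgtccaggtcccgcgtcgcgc
Pola1: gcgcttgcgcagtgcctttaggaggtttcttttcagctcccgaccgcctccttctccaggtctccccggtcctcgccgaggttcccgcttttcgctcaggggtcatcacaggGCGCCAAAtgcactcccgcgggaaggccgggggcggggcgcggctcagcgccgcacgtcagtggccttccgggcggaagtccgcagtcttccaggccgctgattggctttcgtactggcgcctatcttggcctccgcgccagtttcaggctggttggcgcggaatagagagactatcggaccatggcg
Hist1h1a: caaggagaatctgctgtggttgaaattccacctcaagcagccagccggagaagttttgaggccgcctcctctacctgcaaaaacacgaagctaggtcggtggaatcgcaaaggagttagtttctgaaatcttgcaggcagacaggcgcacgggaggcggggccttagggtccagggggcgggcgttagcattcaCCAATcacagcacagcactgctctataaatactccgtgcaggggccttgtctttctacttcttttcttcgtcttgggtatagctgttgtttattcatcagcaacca
TTTGAA was present in 32 of 46 windows of mitosis genes (69.6%), against 17.9% of all windows and 12.5% of the windows of tested genes. An E2F form was present in 14 of 52 windows of replication genes (26.9%), against 1.56% of all windows and 3.09% of those of tested genes. CCAAT was present in 50 of 58 histone windows (86.2%) and in 32 of 46 mitosis windows (69.6%). Its share was 37.4% of all windows and 38.2% of those of tested genes.

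Genes of the G1 phase moved both ways. Of 15 tested members, 6 were higher and 3 were lower. Ccnd1, cyclin D1, had 17.8 and 18.0 FPKM at 24 h and 10.3 and 12.2 FPKM at 10 h, and Rbl1, a retinoblastoma relative, had 6.75 and 7.82 FPKM at 24 h and 2.47 and 3.02 FPKM at 10 h. Cdkn1a, the kinase inhibitor p21, had 9.40 and 10.3 FPKM at 24 h and 13.8 and 14.4 FPKM at 10 h (-0.48 ± 0.13, adjusted p = 0.0251). Cdk4 had 49.1 and 51.6 FPKM at 24 h and 74.2 and 73.3 FPKM at 10 h (-0.54 ± 0.13, adjusted p = 0.0139). The calls of Cdkn1a and Cdk4 were lost when any of the 4 libraries was left out.

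Ribosome biogenesis genes differed in the other direction. Of 30 tested members, 18 were lower at 24 h and none was higher, with a median difference of -0.42. Nhp2, a component of box H/ACA ribonucleoproteins, had 24.6 and 28.1 FPKM at 24 h and 47.0 and 47.1 FPKM at 10 h (-0.82 ± 0.10, adjusted p = 0.000279). Nolc1, a nucleolar chaperone, had 7.58 and 8.55 FPKM at 24 h and 13.1 and 14.4 FPKM at 10 h (-0.71 ± 0.10, adjusted p = 0.000652). Gnl3, nucleostemin, had 13.7 and 17.8 FPKM at 24 h and 33.0 and 33.3 FPKM at 10 h (-1.04 ± 0.18, adjusted p = 0.00247). Against untreated cells, all 30 members were higher at 10 h and 25 were higher at 24 h (24.2% and 26.5% of all tested genes), at median differences of 1.06 and 0.52, and these comparisons share libraries with the one between 24 h and 10 h. Without the first 10 h library, or without the first 24 h library, 11 members were lower.

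**Figure D2:**
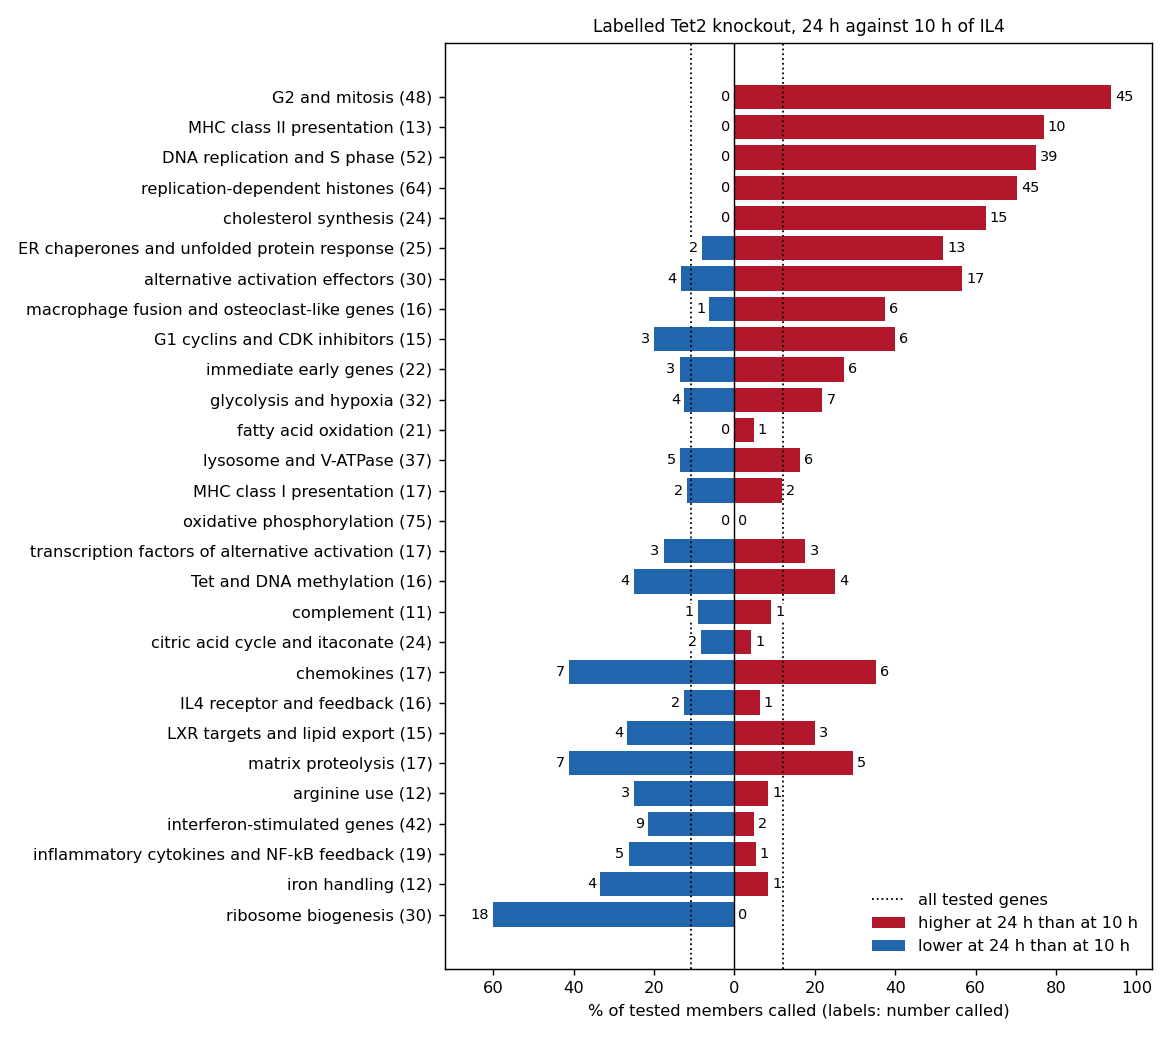
Percent of tested members of 28 gene lists (tested members in parentheses) that were higher (red, right) or lower (blue, left) after 24 h than after 10 h of IL4 in cells labelled Tet2 knockout, with the number called beside each bar and dotted lines at the 12.1% and 10.9% of all tested genes. The mitosis, MHC class II, replication, histone and cholesterol lists have no lower member, and the ribosome biogenesis list has no higher one.

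Most genes of cholesterol synthesis were higher at 24 h. Of 24 tested members, 15 were higher and none was lower, with a median difference of 0.58. Fewer were called higher when any of the 4 libraries was left out. Against untreated cells, 12 were already higher at 10 h (24.2% of all tested genes), with a median of 0.33. That comparison shares the 10 h libraries. Idi1, isopentenyl-diphosphate isomerase, had 29.5 and 32.7 FPKM at 24 h and 11.2 and 13.1 FPKM at 10 h (1.29 ± 0.12, adjusted p = 4.24e-05). Fdps, farnesyl diphosphate synthase, had 79.2 and 83.1 FPKM at 24 h and 35.1 and 30.2 FPKM at 10 h (1.29 ± 0.14, adjusted p = 0.000114). The desaturase genes Scd2 and Scd1 were higher as well, Scd2 at 26.3 and 26.5 FPKM at 24 h and 8.49 and 9.67 FPKM at 10 h.

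Apoe and Apoc2, lipid carriers of the liver X receptor list, were lower. Apoe, apolipoprotein E, fell to 2540 and 2841 FPKM at 24 h, against 5797 and 5419 FPKM at 10 h (-1.06 ± 0.16, adjusted p = 0.00106), a call lost without the low-value filter. Apoc2 fell to 10.4 and 10.8 FPKM at 24 h, against 37.5 and 30.7 FPKM at 10 h (-1.59 ± 0.19, adjusted p = 0.000213). Both were already lower at 10 h than untreated, where Apoe had 8761 and 8599 FPKM and Apoc2 had 63.5 and 51.0 FPKM. In all, 3 of 15 tested members were higher and 4 were lower. The lower ones were 2 without the first 10 h or the second 24 h library, 7 under either other scaling and 8 when only the compared libraries were fitted, and the cholesterol exporter gene Abcg1 was among the higher ones.

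Many endoplasmic reticulum chaperones were higher, with 13 of 25 tested members higher, 2 lower and a median difference of 0.42. Fewer were called higher when any of the 4 libraries was left out. Creld2, an ER stress-inducible protein, had 46.3 and 49.9 FPKM at 24 h and 19.9 and 17.2 FPKM at 10 h (1.33 ± 0.14, adjusted p = 9.37e-05). Dnajc3, the cochaperone p58IPK, had 34.5 and 35.3 FPKM at 24 h and 22.1 and 23.1 FPKM at 10 h (0.61 ± 0.09, adjusted p = 0.00087). Hspa5, the chaperone BiP, had 655 and 717 FPKM at 24 h and 389 and 388 FPKM at 10 h (0.82 ± 0.15, adjusted p = 0.00278). The lower members belong to the amino acid branch of the stress response. Asns, asparagine synthetase, had 6.37 and 6.66 FPKM at 24 h and 9.61 and 10.3 FPKM at 10 h (-0.54 ± 0.09, adjusted p = 0.00143), and Atf4 had 58.0 and 68.2 FPKM at 24 h and 83.2 and 89.9 FPKM at 10 h (-0.45 ± 0.14, adjusted p = 0.0384), where the call of Atf4 was lost when any of the 4 libraries was left out.

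Windows of Creld2 and Dnajc3 are shown because both hold the ER stress response element, whose letters are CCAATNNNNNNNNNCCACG and which thus contains the CCAAT box. It was found on either strand in 7 of 22 windows of the list (31.8%), against 0.119% of all windows. The RefSeq windows of GRCm38.p6 lie at chr15:88819396-88819695, plus strand, for Creld2, with the reverse complement of the element beginning 126 bases before the start, and at chr14:118937682-118937981, plus strand, for Dnajc3, with the element 105 bases before the start. Capitals mark the element.
Creld2: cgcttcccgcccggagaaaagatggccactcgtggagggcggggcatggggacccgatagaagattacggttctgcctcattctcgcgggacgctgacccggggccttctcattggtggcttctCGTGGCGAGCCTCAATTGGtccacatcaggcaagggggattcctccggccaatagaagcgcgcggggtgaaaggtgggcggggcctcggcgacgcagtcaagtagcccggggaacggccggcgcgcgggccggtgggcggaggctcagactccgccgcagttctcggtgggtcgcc
Dnajc3: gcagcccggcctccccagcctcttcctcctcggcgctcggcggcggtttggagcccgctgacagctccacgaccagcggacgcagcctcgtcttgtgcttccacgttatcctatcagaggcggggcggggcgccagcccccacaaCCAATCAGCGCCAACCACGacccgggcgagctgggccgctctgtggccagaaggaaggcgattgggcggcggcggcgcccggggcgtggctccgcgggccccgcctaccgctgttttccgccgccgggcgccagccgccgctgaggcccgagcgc
No inference is drawn from these letters about the factors that bind them.

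Of 16 tested members of the IL4 receptor list, 1 was higher and 2 were lower, near the 12.1% and 10.9% of all tested genes. Il4ra, the ligand-binding chain of the IL4 receptor, was lower, with 21.5 and 18.8 FPKM at 24 h and 51.6 and 42.3 FPKM at 10 h (-1.18 ± 0.17, adjusted p = 0.000803). Il2rg, the shared gamma chain, was higher, with 40.0 and 40.1 FPKM at 24 h and 28.4 and 25.3 FPKM at 10 h (0.56 ± 0.12, adjusted p = 0.00855), and lost its call without the second 10 h library or the second 24 h library. Socs3, a feedback inhibitor, was the other lower member, and its call was lost without either 10 h library or the first 24 h library. Stat6 had 42.2 and 44.3 FPKM at 24 h and 36.3 and 36.6 FPKM at 10 h (adjusted p = 0.21), and the feedback inhibitor gene Socs1 had 42.4 and 37.2 FPKM at 24 h and 64.0 and 59.2 FPKM at 10 h (adjusted p = 0.0682); for both, the libraries of the times did not overlap and the test was not passed.

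Of 17 tested transcription factors of alternative activation, 3 were higher and 3 were lower (all tested genes, 12.1% and 10.9%). Irf4, which is needed for many IL4 target genes, had 26.7 and 24.9 FPKM at 24 h and 13.8 and 13.5 FPKM at 10 h (0.87 ± 0.09, adjusted p = 8.12e-05). Bhlhe40 had 19.3 and 20.7 FPKM at 24 h and 10.0 and 10.6 FPKM at 10 h (0.89 ± 0.10, adjusted p = 0.000181), and Egr2 had 47.9 and 49.2 FPKM at 24 h and 30.9 and 34.1 FPKM at 10 h (0.57 ± 0.10, adjusted p = 0.00295). Maf, a factor that helps to hold macrophages in a resting, non-dividing state, was lower, at 16.2 and 17.0 FPKM at 24 h and 31.9 and 34.2 FPKM at 10 h (-0.95 ± 0.12, adjusted p = 0.000317). Bhlhe41 was also lower. Pparg overlapped between the times, with 43.8 and 51.0 FPKM at 24 h and 44.6 and 53.1 FPKM at 10 h.

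Chemokine genes moved both ways. Of 17 tested, 6 were higher and 7 were lower. Higher were Ccl22, Ccl9, Ccl6, Ccl17, Ccl24 and Ccl8, where Ccl9 stood at 640 and 713 FPKM at 24 h and 235 and 273 FPKM at 10 h, and Ccl22, a ligand of CCR4, at 3.34 and 4.80 FPKM at 24 h and 0.281 and 0.316 FPKM at 10 h. Lower were the monocyte attractants Ccl7, Ccl2 and Ccl12, and Ccl3, Ccl5, Cxcl2 and Cxcl10. Ccl7 fell to 81.6 and 91.3 FPKM at 24 h, against 243 and 282 FPKM at 10 h (-1.59 ± 0.16, adjusted p = 8.69e-05), and Ccl2 to 98.8 and 113 FPKM at 24 h, against 210 and 228 FPKM at 10 h (-1.04 ± 0.18, adjusted p = 0.00195). Ccr2, the receptor of those 3 monocyte attractants, was higher, with 20.0 and 21.6 FPKM at 24 h and 4.81 and 6.23 FPKM at 10 h (1.75 ± 0.15, adjusted p = 3.5e-05). The call of Ccl8 was lost when any of the 4 libraries was left out, and that of Ccl24 without the second library of either time.

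Among inflammatory and interferon-stimulated genes, more members were lower than higher. Of all tested genes, 10.9% were lower and 12.1% were higher. In the inflammatory list 5 of 19 tested members were lower and 1 was higher, a call lost when any of the 4 libraries was left out, and with 1 FPKM in all 12 libraries 2 of 14 were lower and 2 higher. Csf1, which encodes macrophage colony-stimulating factor, had 2.07 and 2.41 FPKM at 24 h and 6.36 and 7.52 FPKM at 10 h (-1.29 ± 0.11, adjusted p = 3.37e-05), and Nos2, the inducible nitric oxide synthase, had 0.399 and 0.424 FPKM at 24 h and 1.35 and 1.32 FPKM at 10 h (-0.72 ± 0.10, adjusted p = 0.00045). Of 42 tested interferon-stimulated genes, 9 were lower, 2 were higher and the median difference was -0.30. Irf7, a factor that amplifies type I interferon, had 10.2 and 11.5 FPKM at 24 h and 33.9 and 29.6 FPKM at 10 h (-1.47 ± 0.22, adjusted p = 0.00105), and Rsad2, viperin, had 5.01 and 6.32 FPKM at 24 h and 13.7 and 17.0 FPKM at 10 h (-1.30 ± 0.23, adjusted p = 0.00277). The untreated replicates differed from each other in this group, with Irf7 at 25.9 and 13.5 FPKM and Mx1 at 13.1 and 6.89 FPKM. The count of lower members was 3 to 7 when 1 library was left out, 3 without the low-value filter, and 14 when only the compared libraries were fitted.

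Genes that were lower at 24 h included some that had peaked at 10 h. Values untreated, at 10 h and at 24 h are set side by side here, and the 10 h libraries enter both steps. Serpina3g, a leukocyte serpin, had 0.936 and 0.677 FPKM untreated, 46.3 and 38.2 FPKM at 10 h and 11.1 and 10.2 FPKM at 24 h (-1.89 ± 0.12 between the IL4 times, adjusted p = 7.08e-06). Reads of Serpina3g and Serpina3f, neighbouring close copies, may be split uncertainly. Prps1, which makes the nucleotide precursor PRPP, had 3.22 and 3.29 FPKM untreated, 78.4 and 74.9 FPKM at 10 h and 38.1 and 36.4 FPKM at 24 h. Tfrc, which takes up iron as transferrin, had 48.8 and 50.5 FPKM untreated, 445 and 458 FPKM at 10 h and 309 and 300 FPKM at 24 h. Ptgs1, Snn and Cd40 followed the same order, and all of these remained above their untreated values at 24 h.

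Other genes were lowest at 10 h. Clec12a, an inhibitory lectin receptor, had 130 and 122 FPKM untreated, 17.5 and 20.8 FPKM at 10 h and 36.8 and 47.6 FPKM at 24 h (1.09 ± 0.15 between the IL4 times, adjusted p = 0.000497). Ifitm6, a myeloid membrane protein, had 11.8 and 10.0 FPKM untreated, 1.99 and 1.94 FPKM at 10 h and 8.87 and 9.14 FPKM at 24 h. Atp8b4 had 11.5 and 10.3 FPKM untreated, 1.64 and 2.15 FPKM at 10 h and 5.79 and 6.36 FPKM at 24 h. Cd14, the lipopolysaccharide co-receptor, had 142 and 124 FPKM untreated, 23.4 and 22.7 FPKM at 10 h and 32.8 and 35.4 FPKM at 24 h, and its call was lost without either 10 h library or without the second 24 h library. All 4 stayed under their untreated values at 24 h, but for Ifitm6 this difference did not pass limma's test (-0.25 ± 0.15, adjusted p = 0.21).

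A further group fell at both steps. Slc40a1, ferroportin, the iron exporter, had 84.4 and 92.3 FPKM untreated, 9.14 and 9.33 FPKM at 10 h and 3.76 and 3.82 FPKM at 24 h. Gpr162 had 52.0 and 54.3 FPKM untreated, 9.98 and 8.56 FPKM at 10 h and 2.17 and 2.07 FPKM at 24 h. Igfbp4, an insulin-like growth factor binding protein, had 84.4 and 85.4 FPKM untreated, 31.8 and 28.6 FPKM at 10 h and 9.97 and 8.73 FPKM at 24 h. Cnrip1, which binds the cannabinoid receptor, differed mainly at the second step, with 44.1 and 48.2 FPKM untreated, 37.0 and 38.8 FPKM at 10 h and 9.72 and 8.37 FPKM at 24 h (-1.95 ± 0.10 between the IL4 times, adjusted p = 2.02e-06). Gadd45a, a stress protein linked to DNA demethylation, had 29.4 and 30.2 FPKM untreated, 11.0 and 11.7 FPKM at 10 h and 2.87 and 3.34 FPKM at 24 h.

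The genes at either end of the named differences that rest on values at or near 0 need care. Rpl26, a ribosomal protein gene with many near-identical copies, is listed at 0 in both 10 h libraries and at 35.7 and 4.47 FPKM at 24 h. Eif3j2, a near-identical copy of Eif3j1, had 0.0889 and 1.55 FPKM at 24 h and 15.6 and 8.75 FPKM at 10 h. Both lost their call without either 10 h library and without the first 24 h library.

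None of 75 tested oxidative phosphorylation genes passed limma's test in either direction. An unadjusted p under 0.05 was reached by 2 of them, against 3846 of all 10510 tested genes. The median difference of the 75 was 0.05. Under median-of-ratios scaling 4 were higher and under quantile normalization 6. Against untreated cells, 64 of the 75 were higher at 10 h and 63 were higher at 24 h (24.2% and 26.5% of all tested genes). These comparisons share libraries with the one between 24 h and 10 h. In the citric acid cycle list 1 of 24 was higher and 2 were lower, in fatty acid oxidation 1 of 21 was higher, and in glycolysis and hypoxia 7 of 32 were higher and 4 were lower (all tested genes, 12.1% and 10.9%). Without any 1 of the 4 libraries the glycolysis counts were 4 higher and 1 to 2 lower, and with the replicate block 4 were higher. Among 37 lysosomal genes 6 were higher and 5 lower, and leaving out 1 library gave 2 higher without the first 10 h or the second 24 h library, 4 higher without either other one, and 1 to 2 lower. Among 22 immediate early genes 6 were higher and 3 lower, 1 lower without the first 10 h library, where Fos had 16.4 and 16.8 FPKM at 24 h and 5.48 and 8.39 FPKM at 10 h. Of 12 iron genes 1 was higher, a call lost when any of the 4 libraries was left out, and 4 were lower. Of 12 genes of arginine use 1, Arg1, was higher and 3, Nos2, Srm and Odc1, were lower. In complement, C3 was higher, with 61.0 and 61.1 FPKM at 24 h and 21.1 and 21.2 FPKM at 10 h, and Cfb was lower, a call lost without the second library of either time.

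The Tet and DNA methylation list had 4 higher and 4 lower of 16 tested members. Besides Uhrf1 and Tet2, the higher ones were Uhrf2 and the glycosylase gene Mbd4, and the lower ones were Gadd45a, Gadd45b, Mbd3 and the methyltransferase gene Dnmt3b. Dnmt1, the maintenance methyltransferase, had 13.9 and 14.8 FPKM at 24 h and 13.1 and 13.3 FPKM at 10 h (adjusted p = 0.411). The higher members numbered 2 when any of the 4 libraries was left out. The lower ones numbered 1 without the first 10 h library, where Gadd45b and Dnmt3b were among the calls lost, 2 without the first 24 h library and 3 without either other one.

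**Figure D3:**
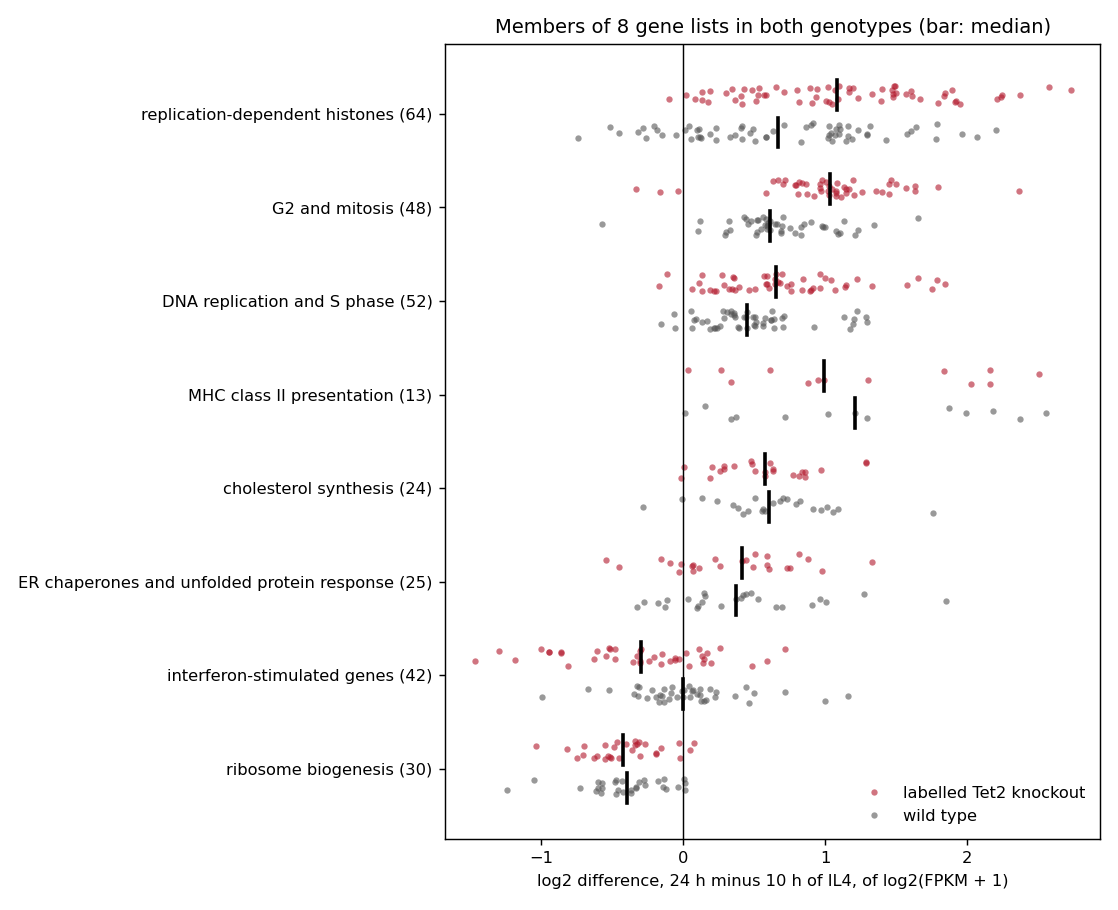
Differences between 24 h and 10 h of IL4, on the scale of log2(FPKM + 1), of every tested member of 8 lists in cells labelled Tet2 knockout (red, upper row of each pair) and wild-type cells (grey, lower row); each point is a gene and black bars are medians. The medians of the histone, mitosis and replication lists are 1.08, 1.04 and 0.65 in the labelled knockout and 0.67, 0.61 and 0.45 in wild type.

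The same 2 times were compared in wild-type cells, which share no library with those above. Both comparisons come from the same fit of all 12 libraries, which gives each gene the same estimate of spread in both genotypes. Calls in the 2 genotypes are therefore not independent, and genes with little spread are more readily called in both. In wild type, 2726 genes passed (25.9% of 10510), 1218 higher at 24 h (11.6%) and 1508 lower (14.3%). The balance turned to 1705 higher and 1476 lower under median-of-ratios scaling and to 1495 and 1075 without the first 24 h library, and it was 918 and 1935 without the second. The genes higher in both genotypes numbered 774, which is 60.8% of those higher in the labelled knockout and 63.5% of those higher in wild type. The genes lower in both numbered 720, which is 62.7% of those lower in the labelled knockout and 47.7% of those lower in wild type. Only 9 genes were called in opposite directions. Of the 2422 genes called in the labelled knockout, 2275 (93.9%) had a wild-type difference of the same sign, and across all 10510 genes, which are not independent of each other, the differences correlated at r = 0.68 and rho = 0.66.

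A test of the difference between the 2 genotypes, labelled knockout minus wild type, called 6 genes (0.0571% of 10510), 1 above (0.00951%) and 5 below (0.0476%). At an unadjusted p under 0.05 there were 1460 genes (13.9%), 981 of them with the labelled knockout above. The number called varied from 3 with a pseudocount of 0.1 to 45 under quantile normalization, where 16 were above and 29 below. With 2 libraries a group, a gene that missed the threshold is not shown to change alike in both genotypes.

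Thbs1, thrombospondin 1, a matrix glycoprotein that can activate TGF-beta, had 9.47 and 8.97 FPKM at 24 h and 13.3 and 13.9 FPKM at 10 h in the labelled knockout, against 12.9 and 16.2 FPKM at 24 h and 5.91 and 6.80 FPKM at 10 h in wild type. The directions were opposite, and the difference was -1.59 ± 0.16 (adjusted p = 0.00504). Timp1, an inhibitor of metalloproteinases, had 13.1 and 15.9 FPKM at 24 h and 18.0 and 19.3 FPKM at 10 h in the labelled knockout, against 9.91 and 11.1 FPKM at 24 h and 4.06 and 3.08 FPKM at 10 h in wild type (-1.68 ± 0.18, adjusted p = 0.00738). Its call was lost without the second 10 h library of the labelled knockout. Within the labelled knockout the fall of Timp1 did not pass limma's test (-0.34 ± 0.13, adjusted p = 0.0818). Untreated, Timp1 had 16.4 and 14.3 FPKM in the labelled knockout and 2.80 and 2.68 FPKM in wild type. The fibroblast markers summed to 9.71 and 9.85 FPKM at 24 h and 20.7 and 21.6 FPKM at 10 h in the labelled knockout, and to 2.52 and 2.58 FPKM at 24 h and 5.31 and 4.48 FPKM at 10 h in wild type. Their part in the levels of these 2 matrix genes was not tested.

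Irg1, which makes itaconate, had 2.00 and 2.38 FPKM at 24 h and 4.48 and 4.88 FPKM at 10 h in the labelled knockout, against 2.47 and 2.49 FPKM at 24 h and 2.18 and 2.11 FPKM at 10 h in wild type (-0.98 ± 0.14, adjusted p = 0.0409). This call was lost when any single library of the 8 was left out, with the replicate block (adjusted p = 0.07), with a pseudocount of 0.1, without the low-value filter and when only the libraries compared were fitted. Ear3 was listed at 0 in both 24 h libraries of the labelled knockout and at 0 and 0.327 FPKM at 10 h, while wild type had 3.80 and 4.25 FPKM at 24 h and 9.3e-05 and 0.272 FPKM at 10 h (-2.36 ± 0.22, adjusted p = 0.00374), with the reservation on near-identical Ear copies. The call of Ear3 was lost at a pseudocount of 0.1. Nos2 had the next smallest p among named genes below wild type and missed the threshold (-0.89 ± 0.14, adjusted p = 0.0836), as did Irf4 in the other direction (0.69 ± 0.12, adjusted p = 0.0836).

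**Figure D4:**
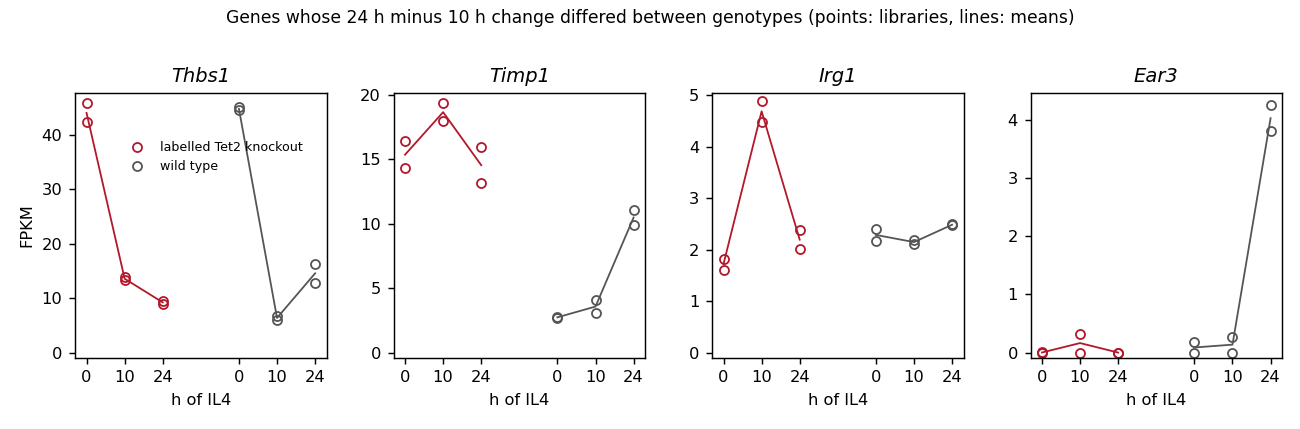
Levels in FPKM of Thbs1, Timp1, Irg1 and Ear3 against hours of IL4 in cells labelled Tet2 knockout (red, left) and wild type (grey, right); points are libraries and lines join means. Thbs1 and Timp1 lie lower at 24 h than at 10 h in the labelled knockout and higher in wild type. The fall of Timp1 in the labelled knockout did not pass limma's test.

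The division genes had higher medians in the labelled knockout than in wild type, without any call of the difference. In the mitosis list 45 members were higher and none lower in the labelled knockout, against 41 higher and 1 lower in wild type, and 44 of 48 had a difference above 0 between genotypes (all tested genes, 53.1%), with a median of 0.36. In the replication list 39 members were higher in the labelled knockout, against 30 in wild type, with 40 of 52 differences above 0 and a median of 0.23. In the histone list the counts were 45 higher and none lower in the labelled knockout, against 35 higher and 3 lower in wild type, with 62 of 64 differences above 0 and a median of 0.44. None of these 164 genes passed limma's adjusted test of the difference. An unadjusted p under 0.05 was reached by 21 mitosis, 18 replication and 17 histone genes (all tested genes, 13.9%). Both other scalings left these medians above 0, at 0.32 and 0.35 for mitosis, 0.19 and 0.20 for replication and 0.40 and 0.44 for histones, and the histone median was 0.17 without the first wild-type 24 h library. With 1 FPKM required in all 12 libraries, differences above 0 were 14 of 17 for mitosis, 26 of 37 for replication and 58 of 60 for histones, with medians of 0.34, 0.15 and 0.44. Top2a had 12.6 and 14.0 FPKM at 24 h and 1.51 and 2.07 FPKM at 10 h in the labelled knockout, against 6.94 and 5.56 FPKM at 24 h and 1.29 and 1.30 FPKM at 10 h in wild type (0.71 ± 0.18, adjusted p = 0.152).

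Interferon-stimulated genes had the lower median in the labelled knockout, again without a call of the difference. Between 24 h and 10 h their median was -0.30 in the labelled knockout, where 9 members were lower and 2 were higher. In wild type the median was 0.00, and 2 members were lower and 4 were higher. Of all tested genes, 10.9% were lower and 12.1% higher in the labelled knockout, and 14.3% lower and 11.6% higher in wild type. Limma's test of the difference between genotypes called none of the 42. Of these, 4 had an unadjusted p under 0.05 (all tested genes, 13.9%) and 6 a difference above 0 (all tested genes, 53.1%). The median of that difference was -0.31, -0.34 under median-of-ratios scaling, -0.33 under quantile normalization and -0.19 without the first 24 h library of the labelled knockout. For alternative activation effectors the counts were 17 higher and 4 lower in the labelled knockout, against 20 higher and 5 lower in wild type, and the median difference between genotypes was 0.06, with -0.06 to 0.17 when 1 library was left out. Arg1 was lower in the labelled knockout than in wild type at 24 h (-1.38 ± 0.12, adjusted p = 0.000284) and at 10 h (-1.18 ± 0.12, adjusted p = 0.000528), while the test of the difference in its late change missed the threshold. It had 373 and 417 FPKM at 24 h and 71.7 and 79.6 FPKM at 10 h in the labelled knockout, against 1065 and 991 FPKM at 24 h and 186 and 159 FPKM at 10 h in wild type (-0.20 ± 0.17, adjusted p = 0.646). Ribosome biogenesis had 18 lower members in each genotype, and cholesterol synthesis had 15 higher in the labelled knockout and 18 higher in wild type. Oxidative phosphorylation had none called in the labelled knockout (median 0.05) and 11 higher in wild type (median 0.20). Of its 75 differences between genotypes, 12 were above 0 (all tested genes, 53.1%), with a median of -0.15, and none was called.

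**Figure D5:**
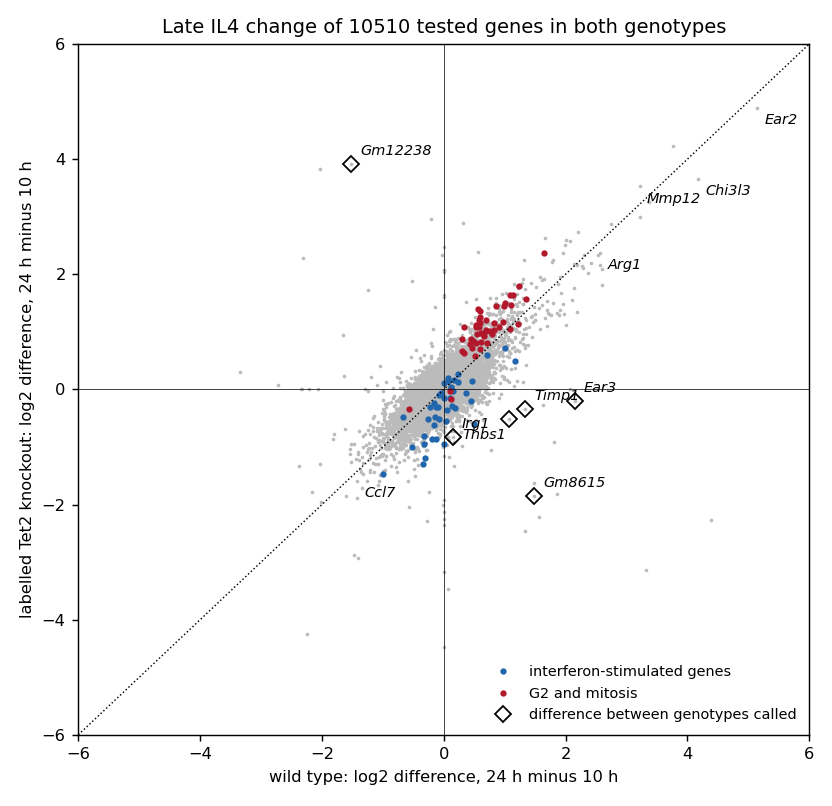
Difference between 24 h and 10 h of IL4 in cells labelled Tet2 knockout (vertical axis) against that in wild-type cells (horizontal axis), both on the scale of log2(FPKM + 1), for 10510 tested genes; the dotted line marks equal differences. Mitosis genes (red) lie mostly above the line, interferon-stimulated genes (blue) mostly below it, and diamonds mark the 6 genes whose difference between genotypes passed the test.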

How the data were processed

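RNA was measured in 12 BMDM libraries. Per the submitters' processing notes, the authors aligned reads to the mm9 build with TopHat and quantified them with Cuffdiff, and they deposited FPKM for 23309 gene models. Versions, annotation and filters are not given in the sources used here, nor is any strand setting, so overlapping genes cannot be separated. No counts are held in these values, so neither sequencing depth nor counting error is known. Depth relative to the first 10 h library was taken as the most frequent ratio of values in genes averaging under 0.15 FPKM, where most values stand for few reads. For 2 symbols listed again, the entry with the higher mean was kept.

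A pseudocount of 1 was added and the log2 taken before limma 3.58.1 was run in R 4.3.3. One model held all 12 libraries in 6 groups, which left 6 residual degrees of freedom, and variances were moderated with an intensity trend. Genes at 1 FPKM or more in at least 2 libraries were tested, and the Benjamini-Hochberg adjustment covered all 10510 of them, with a threshold of 0.05. With 2 libraries a group an exact permutation test of a single gene cannot reach that threshold. The fit was tested on simulated data. Figures were drawn with Python 3.11.15 and matplotlib 3.10.9. The 8 libraries of tumour macrophages and 4 of 5-hydroxymethylcytosine were not used.

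The comparison, the 28 gene lists and the tests were chosen with earlier results of these data known. Genes were named by a rule: the 15 highest and 15 lowest calls, the 4 smallest p-values of every list, the 8 on each side with the largest opposite difference between 10 h and untreated cells, the 5 on each side with the smallest p for the difference between genotypes, and Tet1, Tet2 and Tet3. Numbered gene models and small RNA genes were not named. Retnla, Fn1, Cd36, Mrc1, F13a1, Cdk1, Mki67, Cdkn1a, Cdk4, Gnl3, Hspa5, Asns, Atf4, Cd9, Ccr2, Il1rl1, Timp3, Lox, Serpinh1, Stat6, Socs1, Pparg and other genes outside the rule were named after their values were seen. Some genes are not reported here. Of the tested genes, 8429 matched a RefSeq promoter window of GRCm38.p6, a different build from that of the deposited values. The printed windows all hold the element of their list and were chosen with the values of their genes known.

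Other settings tried were a pseudocount of 0.1, no filter, 1 FPKM in all 12 libraries, median-of-ratios scaling, quantile normalization, a fit of only the libraries compared, the replicate number as a block, and leaving out each library. The labels do not say that same-numbered libraries share an animal or a day.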

Additional observations from a re-analysis of the deposited data

Results flagged for a closer look

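For 6 genes the difference between 24 h and 10 h of IL4 itself differed between genotypes, by limma's test of labelled knockout minus wild type. Thbs1 (-1.59), Timp1 (-1.68), Irg1 (-0.98) and Ear3 (-2.36) are described above. The other 2 are numbered gene models, named here after their values were seen. Gm8615 had 0 and 0.0269 FPKM at 24 h and 2.57 and 2.77 FPKM at 10 h in the labelled knockout, against 1.63 and 2.26 FPKM at 24 h and 0.0440 and 0.0556 FPKM at 10 h in wild type, a difference of -3.33 ± 0.16 (adjusted p = 9.75e-06). Its untreated levels were 0.0977 and 0 FPKM in the labelled knockout and 3.16 and 3.03 FPKM in wild type. Gm12238 had 12.8 and 38.2 FPKM at 24 h and 1.37 and 0 FPKM at 10 h in the labelled knockout, against 15.1 and 8.91 FPKM at 24 h and 31.2 and 39.5 FPKM at 10 h in wild type, a difference of 5.43 ± 0.73 (adjusted p = 0.037). Its untreated levels were 17.4 and 13.5 FPKM in the labelled knockout and 7.74 and 15.3 FPKM in wild type, and its call was lost when any of 6 of the 8 libraries was left out, with a pseudocount of 0.1, without a filter, when only the libraries compared were fitted and with the replicate block.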

How the results depend on the processing

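The 2422 calls between 24 h and 10 h in the labelled knockout became 1236 to 1561 when any 1 of the 4 compared libraries was left out, with 679 to 928 higher and 557 to 647 lower. Under the other settings the count was 1957 to 3413, and fitting only the compared libraries gave 1797 lower genes. The 2726 wild-type calls became 1332 when only the compared libraries were fitted, 1384 and 1230 without the first or second 10 h library, and 1230 to 2853 over all libraries left out. The 6 calls of the difference between genotypes became 3 with a pseudocount of 0.1, 11 without a filter, 3 with 1 FPKM required in all 12 libraries, 15 under median-of-ratios scaling, 45 under quantile normalization, and 5 to 7 when 1 library was left out (the cause was not tested). With the replicate number as a block, 2159 genes were called in the labelled knockout, 2346 in wild type and 5 for the difference, and 7 of 164 named calls were lost. Deviations of same-numbered libraries correlated at 0.14 between 24 h and 10 h in the labelled knockout, and at -0.01, -0.02 and -0.02 in the other pairs checked, and the labels tie no number to an animal or day, so with 2 pairs the samples share only a number. No called named gene changed direction under any of these settings, and 16 to 22 of 164 named calls were lost when 1 library was left out. Among values that were not called, leaving out 1 library changed the sign of Pparg (-0.164 to 0.0823) and Tet3 (-0.107 to 0.0565), and Ear3 ranged from -0.41 to 0. Without counts, genes under about 1 FPKM are the least certain.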

Other observations

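Other genes outside the lists, of which Il1rl1 was chosen after its values were seen, were also higher at 24 h in cells labelled Tet2 knockout. Il1rl1, which encodes the IL-33 receptor ST2, had 5.55 and 6.00 FPKM at 24 h and 1.23 and 1.61 FPKM at 10 h (1.49 ± 0.10, adjusted p = 9.86e-06 by limma). Dpysl2, a cytoskeletal phosphoprotein, had 28.3 and 27.0 FPKM at 24 h and 11.4 and 12.6 FPKM at 10 h in the labelled knockout, against 18.3 and 21.6 FPKM at 24 h and 16.2 and 16.4 FPKM at 10 h in wild type. The difference between genotypes was 0.87 ± 0.14 and missed the threshold (adjusted p = 0.0836). Kctd12, a GABA-B receptor subunit, had 153 and 155 FPKM at 24 h and 70.4 and 83.2 FPKM at 10 h in the labelled knockout, against 114 and 125 FPKM at 24 h and 114 and 111 FPKM at 10 h in wild type (0.92 ± 0.15, adjusted p = 0.0836).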
